A study of Homo sapiens with 4 samples.

Results

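The genes described here encode 8 chaperones and folding enzymes of the endoplasmic reticulum (ER), the ER membrane protein HERPUD1 and the transcription factor XBP1. They were taken by symbol (HSPA5, HSP90B1, DNAJB9, CALR, CANX, PDIA3, PDIA4, PDIA6, HERPUD1 and XBP1), and all 10 were found among the 62443 genes of the deposited table. The table covers RNA of the human gastric cancer cell line HGC-27 in 2 control libraries and 2 libraries of GLUP-treated cells. GLUP is a synthetic peptide that repeats a TEAD4-binding element and was designed to join TEAD4 molecules. GLUP was used at 10 μg/ml, for 12 h in the account of the results and for 48 h in that of the methods. According to the methods a stocking buffer served as the negative control, whereas the sample labels give no treatment for the control cells. The comparison asked which transcripts differ between GLUP-treated and control cells.

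Proteins that enter the secretory pathway are folded in the ER with the help of the HSP70 chaperone BiP, the HSP90 chaperone GRP94, the lectins calnexin and calreticulin and a family of protein disulfide isomerases. When unfolded proteins accumulate, the sensors IRE1, ATF6 and PERK start the unfolded protein response. IRE1 splices XBP1 mRNA into the form that encodes the active factor, and active ATF6 and XBP1 raise the transcription of chaperone and degradation genes through ER stress response elements (ERSE) in their promoters. The deposited values are per gene, so spliced and unspliced XBP1 mRNA were not told apart.

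The promoters of these genes are shown first, since most of them share the same element. RefSeq promoter windows, which run from 250 bases before to 50 bases after a transcription start on GRCh38.p14, were matched by symbol for 9 of the 10 genes (15 windows), and PDIA3 had none. The ERSE was searched on both strands as CCAAT, then any 9 bases, then CCACG, and the related ERSE-II as ATTGG, then any base, then CCACG. An exact ERSE was found for HSPA5, HSP90B1 (in 2 places), CALR, CANX, PDIA6 and XBP1, thus for 6 of the 9 genes. Over all 27305 genes with a window, 25 genes or 0.0916% held an exact ERSE. HERPUD1 held an ERSE-II, which 19 genes or 0.0696% held. DNAJB9 and PDIA4 held neither sequence in their windows. The 8-base core TGACGTGG of the unfolded protein response element occurred in none of the 15 windows and in 0.729% of all 35116. The shorter CCAAT, which is part of the ERSE, occurred in 34.6% of all windows. A match of letters does not show that a factor binds there.

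The 250 bases upstream of the start are given for HSPA5 and XBP1, which carry the same element and lay on opposite sides in the comparison below. Both are written 5′ to 3′ on the strand of the gene, with the ERSE in capitals, and lie at chr9:125241344-125241593 and chr22:28800570-28800819 of GRCh38.p14, both on the minus strand.
HSPA5: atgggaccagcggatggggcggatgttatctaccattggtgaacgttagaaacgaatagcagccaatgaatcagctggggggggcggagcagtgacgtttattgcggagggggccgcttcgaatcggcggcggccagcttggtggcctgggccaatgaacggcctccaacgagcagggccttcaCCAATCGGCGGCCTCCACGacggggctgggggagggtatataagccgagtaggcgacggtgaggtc
XBP1: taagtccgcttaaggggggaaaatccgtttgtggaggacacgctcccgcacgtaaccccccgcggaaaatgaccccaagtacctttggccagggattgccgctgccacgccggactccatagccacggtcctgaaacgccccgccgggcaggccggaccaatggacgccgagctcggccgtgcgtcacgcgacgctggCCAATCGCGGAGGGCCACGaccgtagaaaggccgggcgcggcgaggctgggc

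The elements of the other genes are shown with 20 bases on each side so that their spacing can be compared, again with the matched letters in capitals. In CALR and in the second site of HSP90B1 the match is on the opposite strand, so that the capitals begin with CGTGG. They lie at chr12:103930196-103930254 and chr12:103930301-103930359 (HSP90B1), chr19:12938364-12938422 (CALR), chr5:179698758-179698816 (CANX), chr2:10812833-10812891 (PDIA6, minus strand) and chr16:56932005-56932055 (HERPUD1) of GRCh38.p14.
HSP90B1 first site: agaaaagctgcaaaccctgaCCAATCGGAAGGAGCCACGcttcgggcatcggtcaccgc
HSP90B1 second site: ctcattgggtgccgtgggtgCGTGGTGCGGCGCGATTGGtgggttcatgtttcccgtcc
CALR: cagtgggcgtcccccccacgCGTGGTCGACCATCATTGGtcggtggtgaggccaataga
CANX: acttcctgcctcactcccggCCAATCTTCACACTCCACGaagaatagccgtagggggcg
PDIA6: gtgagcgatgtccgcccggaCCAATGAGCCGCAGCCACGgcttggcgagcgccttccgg
HERPUD1 (ERSE-II): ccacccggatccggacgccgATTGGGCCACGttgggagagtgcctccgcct

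Levels are in FPKM, the fragments of a gene scaled by its length and by all mapped fragments of the library, and the depth is unknown. A linear model with moderated variances (limma) was fitted to log2(FPKM + 1) for the 7588 genes that averaged 1 FPKM or more, and p-values were adjusted over all 7588 by the Benjamini-Hochberg method. The labels do not say whether the 2 libraries of a group came from separate cultures, so the p-values measure the spread between these libraries. Control replicate 2 differed from control replicate 1 more than the GLUP libraries differed from each other (Pearson r across genes of 0.933 and 0.986). The fold change followed the GC content of the genes across the table (Spearman rho of 0.58 across genes), and the difference of control replicate 2 from control replicate 1 did so in the opposite sense (rho of -0.42). The tested genes had a median log2 fold change of -0.36. Of 3 mesenchymal markers looked for, VIM was at 293 to 387 FPKM, FN1 at 0.655 to 3.25 FPKM and CDH2 at 0 to 0.0508 FPKM. KRT8, KRT18 and KRT19 were at 0.764 to 2.25 FPKM. EPCAM, CDH1 and all 5 gastric epithelial markers looked for (MUC5AC, MUC6, TFF1, TFF2 and GKN1) were under 1 FPKM in every library. EPCAM, CDH1 and the gastric epithelial markers were thus at or near 0 in this line as sequenced here, while KRT8, KRT18 and KRT19 were detected at low levels.

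All 10 genes averaged 1 FPKM or more, and none had an adjusted p under 0.05 in limma (0.10 was the lowest). Among all tested genes, 0.0264% passed that threshold with a fold change over 2. A looser rule, the nominal rule, asked for more than a 2-fold difference on the log2(FPKM + 1) scale together with p under 0.05 before adjustment. PDIA4 was higher by the nominal rule (4.67% of all genes tested were), and CANX and XBP1 were lower (14.5% of all genes). By fold alone, HSPA5 and PDIA4 were over 2-fold higher (6.83% of all genes) and CANX and XBP1 over 2-fold lower (16.3%). By p alone, 1 of the 10 was higher (6.37% of all genes) and 3, with DNAJB9 added, were lower (25.4%). Both GLUP libraries lay above both control libraries for HSPA5 and PDIA4 (17.5% of all genes) and below both for HSP90B1, DNAJB9, CANX and XBP1 (49.7% of all genes). The groups overlapped for CALR, PDIA3, PDIA6 and HERPUD1. The median log2 fold change of the 10 was -0.19, which is 0.16 above that of all genes tested, and 5 of the 10 were below 0 (66.7% of all genes). The counts differed when a control library was left out. With control replicate 1 left out, HSPA5, CANX, PDIA3 and PDIA4, or 4 of the 10, had an adjusted p under 0.05 in limma and over a 2-fold difference, as did 35.7% of all genes. With control replicate 2 left out, CANX and XBP1, or 2 of the 10, did, as did 13.4% of all genes. With no fold limit, 8 of the 10 passed without control replicate 1 (53.2% of all genes; CALR and PDIA6 did not) and 5 without control replicate 2 (18.7%; CALR, CANX, PDIA6, HERPUD1 and XBP1).

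**Figure D1:**
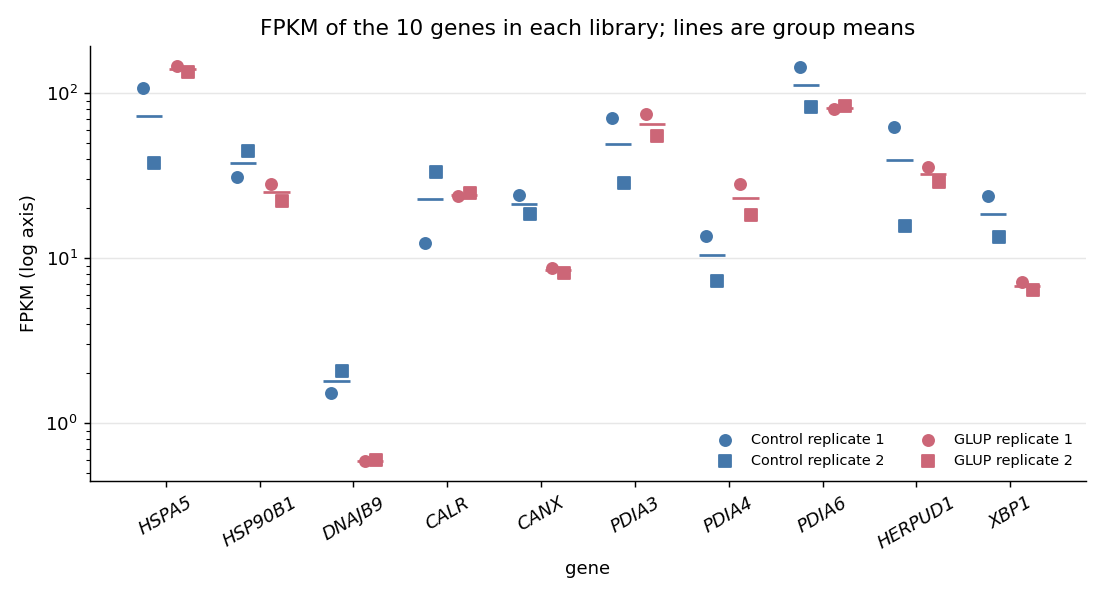
FPKM of the 10 genes on a log axis in each of the 4 libraries (blue, control; red, GLUP; circles, replicate 1; squares, replicate 2), with the mean of each group as a line. The GLUP points lie above both control points for HSPA5 and PDIA4 and below both for HSP90B1, DNAJB9, CANX and XBP1, and the control points of HSPA5, CALR, PDIA3 and HERPUD1 are far apart.

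HSPA5 encodes BiP (GRP78), the main HSP70 chaperone of the ER lumen and the partner that holds the stress sensors inactive. The gene lies on chromosome 9 from 127997132 to 128003661 of GRCh37, the build that all gene positions here refer to. HSPA5 had FPKM values of 108 and 37.5 in controls against 146 and 135 under GLUP. Both GLUP values were higher than both control values, but control replicate 1 was nearer to them than to control replicate 2. The group levels were 72.7 ± 49.8 FPKM (SD, n = 2) and 140.4 ± 8.23 FPKM (SD, n = 2), a ratio of the means of 1.93. The log2 fold change was 1.13 (SE 0.54, 95% interval -0.21 to 2.46, limma with Benjamini-Hochberg adjusted p = 0.204), or 1.48 above the median of all genes. Without control replicate 2 it was 0.38, and without control replicate 1 it was 1.88.

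HSP90B1, which encodes the HSP90 chaperone GRP94 (chromosome 12 from 104323885 to 104347709), had FPKM values of 31.0 and 44.7 in controls against 28.3 and 22.1 under GLUP. Both GLUP values were thus below the controls, with a small gap to control replicate 1. Its log2 fold change was -0.56 (SE 0.36, limma adjusted p = 0.304), which is 0.20 lower than the median of all genes, and it was 0.16 with the GC trend removed. UQCC6, which overlaps HSP90B1 on the opposite strand, was at 1.87 to 3.57 FPKM, and reads of the overlap cannot be told apart where counting ignores strand, on which the sources used here are silent.

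DNAJB9 encodes ERdj4, a J-domain cochaperone of BiP that also restrains IRE1. It was the lowest of the 10 genes in every library, with FPKM values of 1.51 and 2.07 in controls against 0.587 and 0.594 under GLUP (chromosome 7 from 108210311 to 108215294). The GLUP libraries were nearly equal and both under the controls. Its mean over the 4 libraries of 1.19 FPKM passed the filter only through the control libraries, so a gene at this level in GLUP could enter the test only if it was higher in controls. The log2 fold change was -0.80 (SE 0.24, 95% interval -1.39 to -0.22, limma with Benjamini-Hochberg adjusted p = 0.109). It was -1.44 with a pseudocount of 0.1 in place of 1 and -0.01 with the GC trend removed.

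Calnexin and calreticulin, the paired lectins that hold newly made glycoproteins until they fold, differed in their values across the libraries. CANX, the membrane-bound lectin (chromosome 5 from 179105629 to 179158642), had FPKM values of 24.0045 and 18.6 in controls against 8.73 and 8.13 under GLUP. The groups were well apart, with 21.3 ± 3.84 FPKM (SD, n = 2) against 8.43 ± 0.418 FPKM (SD, n = 2), so that the control mean was 2.53 times the GLUP mean. Its log2 fold change was -1.23 (SE 0.32, 95% interval -2.01 to -0.45, limma with Benjamini-Hochberg adjusted p = 0.10), and leaving out control replicate 2 or 1 gave -1.41 and -1.05. CALR, the soluble lectin (chromosome 19 from 13049392 to 13055303), had FPKM values of 12.3 and 33.0 in controls against 23.6 and 24.7 under GLUP. The GLUP values lay between the controls, and the log2 fold change of 0.24 (SE 0.50, limma adjusted p = 0.755) moved to -0.44 when control replicate 1 was left out and to 0.91 when control replicate 2 was. Within each library CALR was at 0.514 and 1.78 times the FPKM of CANX in the controls and at 2.71 and 3.03 times with GLUP. On the log2 scale the controls differed from each other by 1.79 in this ratio, more than the smallest gap of 0.61 between the groups. GC content was 53.8% for CALR and 40.8% for CANX.

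The disulfide isomerases form and rearrange disulfide bonds. PDIA4 (ERp72, chromosome 7 from 148700154 to 148725754) had FPKM values of 13.6 and 7.30 in controls against 28.0 and 18.3 under GLUP. Both GLUP libraries were above both controls, and the ratio of the means was 2.22. The log2 fold change was 1.11 (SE 0.42, 95% interval 0.07 to 2.14, limma with Benjamini-Hochberg adjusted p = 0.142), with 0.70 without control replicate 2 and 1.51 without control replicate 1.

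PDIA3 (ERp57, the partner of both lectins, chromosome 15 from 44038592 to 44065477) had FPKM values of 70.4 and 28.4 in controls against 74.3 and 54.6 under GLUP. Control replicate 1 lay between the GLUP libraries, and the log2 fold change of 0.50 (SE 0.51, limma adjusted p = 0.502) moved to -0.14 when control replicate 2 was left out and to 1.14 when control replicate 1 was. Its processed pseudogene PDIA3P1, with which reads could be shared, was listed with FPKM values of 7.53 and 3.31 in controls against 7.84 and 5.77 under GLUP, so the level of PDIA3 is uncertain to that extent. PDIA6 (P5, chromosome 2 from 10923517 to 10978103), the highest of the 10 genes in both control libraries, had FPKM values of 142.9 and 82.1 in controls against 79.6 and 83.0 under GLUP. Control replicate 2 lay between the GLUP libraries, and the log2 fold change of -0.41 (SE 0.39, limma adjusted p = 0.471) moved to -0.02 when control replicate 1 was left out and to -0.81 when control replicate 2 was.

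HERPUD1, a membrane component of ER-associated degradation and a sensitive stress-induced gene (chromosome 16 from 56966054 to 56978776), had the largest ratio between the control libraries among the 10, while HSPA5 and PDIA6 had larger differences in FPKM. It had FPKM values of 62.4 and 15.6 in controls against 35.4 and 28.9 under GLUP. The GLUP values lay between the controls, and the log2 fold change of 0.02 (SE 0.65, 95% interval -1.59 to 1.63, limma with Benjamini-Hochberg adjusted p = 0.983) moved to -0.94 when control replicate 2 was left out and to 0.99 when control replicate 1 was. These data give no direction for HERPUD1.

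XBP1 (chromosome 22 from 29190543 to 29196585) had FPKM values of 23.8 and 13.3 in controls against 7.17 and 6.39 under GLUP. Both GLUP libraries were below both controls, and the control mean was 2.74 times the GLUP mean (18.6 ± 7.38 FPKM and 6.78 ± 0.550 FPKM, SD, n = 2 each). Its log2 fold change of -1.28 (SE 0.38, 95% interval -2.21 to -0.35, limma with Benjamini-Hochberg adjusted p = 0.110) was the lowest of the 10 and is 0.92 lower than the median of all genes. Leaving out control replicate 1 or 2 gave -0.88 and -1.67.

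**Figure D2:**
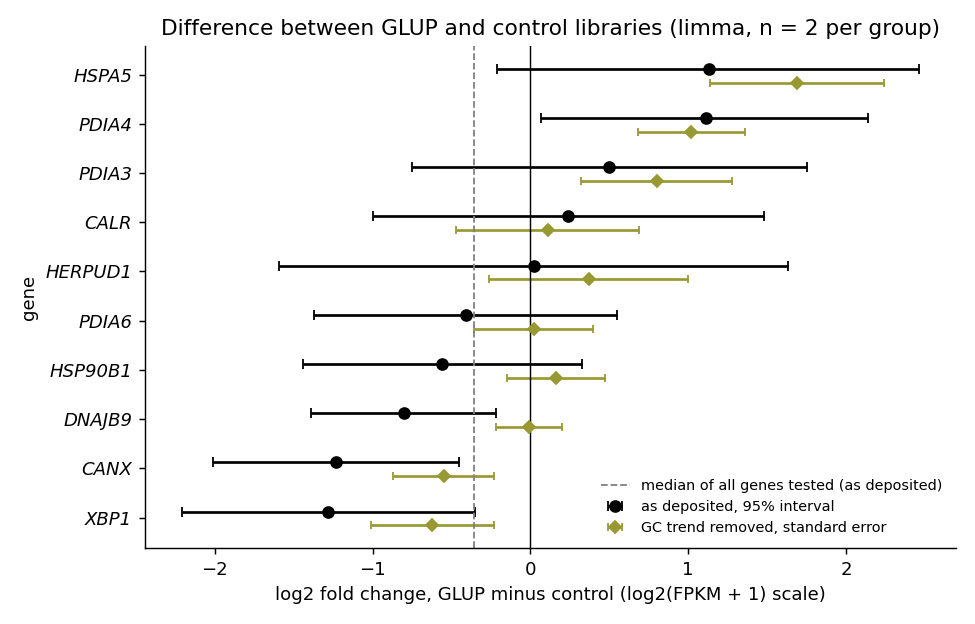
Log2 fold change of each of the 10 genes on the log2(FPKM + 1) scale from limma, as deposited (black, with the 95% interval) and with the GC trend of each library removed (olive, with the standard error), and the median of all genes tested at -0.36 as a dashed line. HSPA5 and PDIA4 are at the top with 1.13 and 1.11, CANX and XBP1 at the bottom with -1.23 and -1.28, and the interval of HSPA5 includes 0.

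GC content moved with these differences. Over the 10 genes, the Spearman rho between log2 fold change and GC content was 0.67, as a description over genes that share the same libraries. DNAJB9 and HSP90B1, with 37.3% and 39.7% GC, were among the tested genes of lowest GC content (bin 1 of 5 equal bins), whose median log2 fold change was -0.78. PDIA4 and CALR, with 53.2% and 53.8% GC, were in bin 4, whose median was 0.02. HSPA5, CANX and XBP1, with 43.7%, 40.8% and 41.5% GC, were in bin 2, whose median was -0.64. With the GC trend of each library removed, HSPA5 was at 1.69 (SE 0.55, limma adjusted p = 0.232), PDIA4 at 1.02 (limma adjusted p = 0.236), CANX at -0.55 (limma adjusted p = 0.378) and XBP1 at -0.62 (limma adjusted p = 0.416). After that correction, HSPA5 and PDIA4 were higher by the nominal rule (4.68% of all genes tested were) and none of the 10 was lower (4.57%). The correction also removes the overall shift of each library, so these counts are not particular to GC content. Median centring alone likewise gave 2 higher and 0 lower. It put HSPA5 at 1.47, PDIA4 at 1.45, CANX at -0.89 and XBP1 at -0.94.

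**Figure D3:**
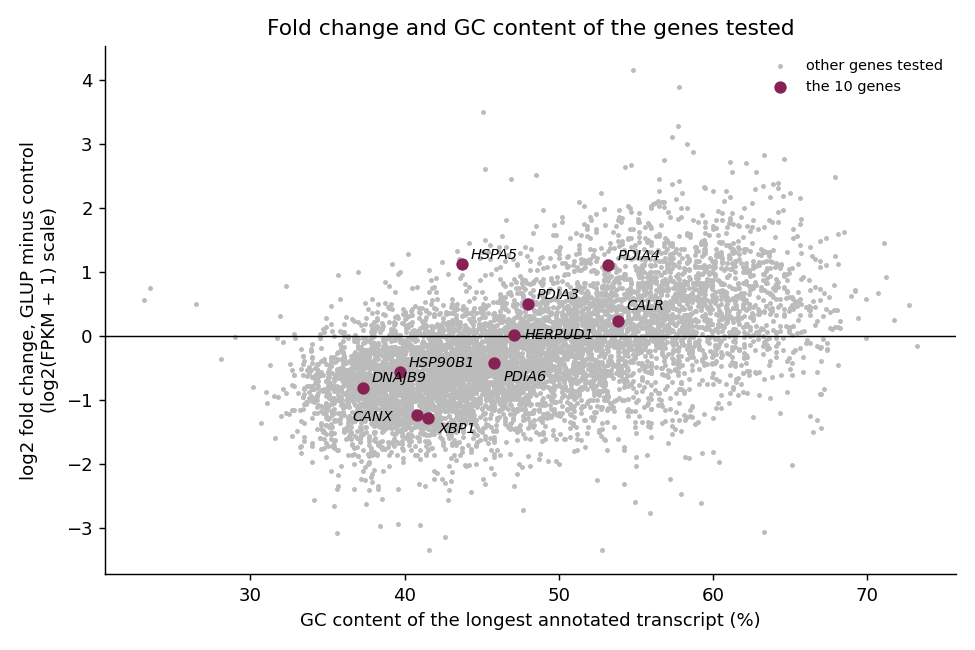
Log2 fold change between GLUP and control libraries (log2(FPKM + 1) scale) against the GC content of the longest annotated transcript for the tested genes with a known GC content (grey), with the 10 genes in purple. Fold changes are higher at higher GC content (Spearman rho of 0.58 across genes), and the 10 genes run from -1.28 (XBP1) to 1.13 (HSPA5).

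Ratios between genes within a library do not depend on the scaling of that library, but a trend with GC content does not cancel in them. HSPA5 had 4.54 and 2.81 times the FPKM of XBP1 in the control libraries and 20.4 and 21.1 times with GLUP. Relative to CANX, it had 4.49 and 2.02 times in the controls and 16.8 and 16.5 times with GLUP. Both ratios were thus higher in each GLUP library than in each control library by more than the controls differed from each other. HSPA5 and PDIA4 had the highest fold changes of the 10, and CANX and XBP1 the lowest. Wide gaps in ratios of the former to the latter thus follow from the choice of pair and are no separate result. PDIA4 had 0.570 and 0.548 times the FPKM of XBP1 in the controls and 3.90 and 2.87 times with GLUP. Among the 45 pairs of the 10 genes this pair had the widest gap between the groups (at least 2.33 on the log2 scale, against 0.06 between the controls). The 2 genes differ in GC content (53.2% and 41.5%). Their log2 fold changes of 1.11 and -1.28 became 1.02 and -0.62 with the GC trend removed. The order of HSPA5 and PDIA6 differed, since HSPA5 was at 0.755 and 0.456 times the FPKM of PDIA6 in the controls and at 1.84 and 1.62 times with GLUP. In contrast, HSPA5 over PDIA4 (7.96 and 5.13 against 5.23 and 7.34) and CANX over XBP1 (1.01 and 1.39 against 1.22 and 1.27) overlapped between the groups. In all, 33 of the 45 ratios did not overlap, beside 61.5% of the ratios between any 2 tested genes with no value at 0. HSPA5 over the gene was higher in both GLUP libraries for 7 of the other 9, beside 77.1% when HSPA5 was set over every other such gene, so these counts are no result about the 10 genes. With 2 libraries against 2, an exact permutation test of a ratio cannot give a two-sided p below 0.333, so none was run.

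**Figure D4:**
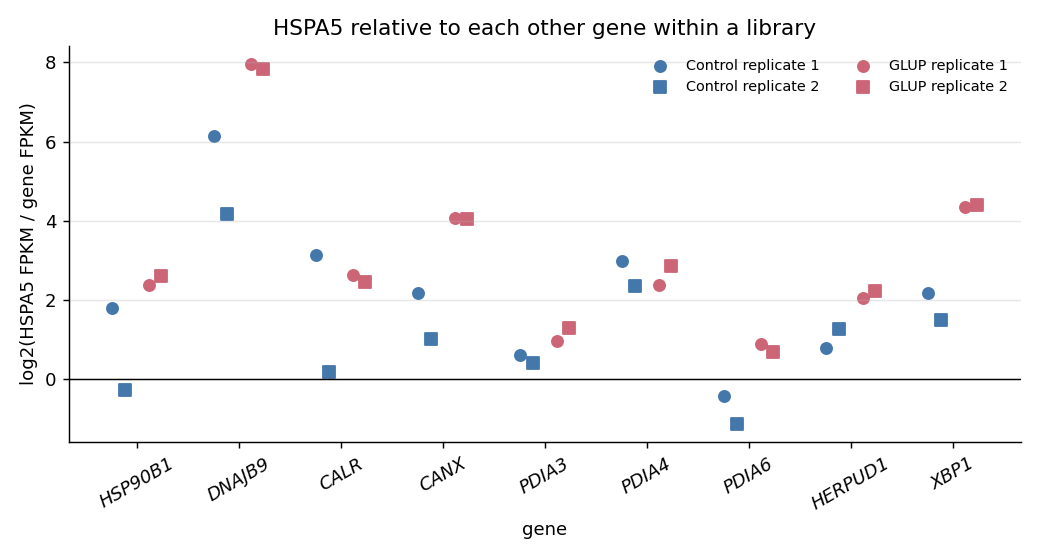
Log2 ratio of the FPKM of HSPA5 to that of each of the other 9 genes within a library (blue, control; red, GLUP; circles, replicate 1; squares, replicate 2). The GLUP points lie above both control points for 7 of the 9 genes (77.1% over all tested genes), with the groups overlapping for CALR and PDIA4, and for XBP1 they lie at 4.35 and 4.40 against 2.18 and 1.49 in the controls.

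The shares of the genes within the group were also compared. The summed FPKM of the 10 genes was 489.9 and 282.7 in the control libraries and 431.9 and 381.3 with GLUP, so that the groups overlapped. HSPA5 made up 22.0% and 13.3% of that sum in the controls and 33.9% and 35.3% with GLUP. PDIA6 made up 29.2% and 29.1% in the controls and 18.4% and 21.8% with GLUP. The share of a gene also depends on the levels of the others in the sum. XBP1 made up 4.85% and 4.72% in the controls and 1.66% and 1.68% with GLUP, and CANX 4.90% and 6.57% against 2.02% and 2.13%. In these bulk libraries, a lower level in every cell and fewer cells with the transcript cannot be told apart.

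Genes with an exact ERSE lay on both sides of 0. The 6 that belong to this group ran from 1.13 (HSPA5) through 0.24 (CALR), -0.41 (PDIA6), -0.56 (HSP90B1) and -1.23 (CANX) to -1.28 (XBP1) in log2 fold change, and HSP90B1 and PDIA6 were at 0.16 and 0.02 with the GC trend removed. Another 5 genes with an exact ERSE were tested, which were named here after their values were seen, with log2 fold changes of 1.05 for TMEM120A, -0.42 for TRIM5, -0.77 for CRELD2, -0.98 for SERP1 and -1.08 for EIF2A. Over all 11, the median log2 fold change was -0.56, and 8 were below 0, against 66.7% of all genes tested. None of the 11 had an adjusted p under 0.05 in limma.

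Other ER genes were taken from a list of 96 genes in 8 groups, of which all were found and 77 were tested. None had an adjusted p under 0.05 in limma (0.10 was the lowest), while 9 were higher (6.37% of all genes) and 28 lower (25.4%) at p under 0.05 before adjustment. The counts of this list include genes that passed the filter only through the group where they were higher. Examples, named after their values were seen, are UGGT2 (1.81 FPKM in controls, 0.586 under GLUP), DNAJC10 (1.91 and 0.650) and MAN1B1 (0.514 and 1.51). By the nominal rule, 7 of the 77 were higher (4.67% of all genes) and 15 lower (14.5%). With the GC trend removed, 5 were higher (4.68%) and 6 lower (4.57%). The median log2 fold change was -0.51, which is 0.16 lower than that of all genes. The counts by group below follow the nominal rule and are small, and they are to be read beside the same 4.67% and 14.5% of all genes. GLUP values lay under those of both controls in 47 of the 77 genes (49.7% of all genes) and over them in 18 (17.5%).

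Among the BiP cochaperones and nucleotide exchange factors, 1 of 11 was higher by the nominal rule (4.67% of all genes) and 4 were lower (14.5%). SDF2L1, a stress-induced partner of ER J-domain proteins, had the lowest fold change of the whole list. It had FPKM values of 159.7 and 57.4 in controls against 19.2 and 27.8 under GLUP, with a log2 fold change of -2.01 (SE 0.55, limma adjusted p = 0.103), and -1.27 without control replicate 1. Both of its GLUP values were under both controls. SDF2L1 has a GC content of 65.1%, and with the GC trend removed its log2 fold change was -2.60, so it lay opposite to HSPA5 in either case. SIL1, the exchange factor of BiP, stood at 11.6 and 4.84 FPKM in the controls and at 17.5 FPKM in both GLUP libraries (log2 fold change 1.11, 0.56 without control replicate 2 and 0.74 with the GC trend removed). The other lower genes, DNAJB11, DNAJC1 and MANF, named after their values were seen, were at -1.25, -1.12 and -1.08, and with the GC trend removed at -0.50, -1.06 and -1.04. DNAJC1 averaged 0.993 FPKM under GLUP, so it entered the test through the controls.

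Among the disulfide isomerases and oxidases, 1 of 8 was higher by the nominal rule and none lower. This was P4HB, the prototype protein disulfide isomerase, with FPKM values of 9.90 and 3.21 in controls against 24.4 and 19.3 under GLUP (log2 fold change 1.74, SE 0.51, limma adjusted p = 0.108, and 1.06 without control replicate 2), which thus lay on the same side as PDIA4. PRDX4, the ER peroxiredoxin among the most abundant genes of the list, had FPKM values of 298 and 180.9 in controls against 171.7 and 189.0 under GLUP, where the groups overlapped. Of 7 prolyl isomerases, PPIB and FKBP10 were higher and FKBP7 and FKBP14 lower by the nominal rule. PPIB (cyclophilin B) had FPKM values of 144.9 and 74.9 in controls against 304 and 273 under GLUP. Its log2 fold change was 1.46 (SE 0.41, limma adjusted p = 0.106), and 0.99 without control replicate 2, short of the 2-fold limit. FKBP10, FKBP14 and FKBP7, named after their values were seen, had log2 fold changes of 1.08, -1.05 and -1.16. With the GC trend removed they were at 0.63, -0.30 and -0.35. FKBP10 averaged 0.689 FPKM in controls and 2.59 FPKM under GLUP, so it passed the filter only through the GLUP libraries.

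Glycan processing and the lectin cycle held the highest fold change of the list, that of LMAN2, a cargo lectin of the early secretory pathway, which had FPKM values of 33.0 and 6.03 in controls against 136 and 113 under GLUP. Its log2 fold change was 3.01 (SE 0.74, limma adjusted p = 0.10) and was 1.88 without control replicate 2. GANAB and PRKCSH, the subunits of glucosidase II that prepares glycans for calnexin and calreticulin, were both higher, with log2 fold changes of 1.11 and 1.06 (PRKCSH, at 0.57 with the GC trend removed, was named after its values were seen). These 3 of 8 genes met the nominal rule on the higher side and none on the lower, whereas CANX itself was lower. With the GC trend removed, LMAN2 was at 2.6, GANAB at 1.0 and CANX at -0.55, where CANX no longer met the rule. GANAB was at 0.67 without control replicate 2.

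In ER-associated degradation, 3 of 16 genes were lower by the nominal rule, which is near the 14.5% of all genes, and none was higher, while 6 of the 16 had a log2 fold change above 0. SEL1L, the scaffold of the HRD1 ubiquitin ligase complex, had FPKM values of 2.74 and 8.77 in controls against 0.822 and 0.879 under GLUP (log2 fold change -1.71, -1.02 without control replicate 2 and -0.98 with the GC trend removed). It passed the filter only through the controls. SELENOK stood at 145.5 and 296 FPKM against 54.3 and 79.9 FPKM (log2 fold change -1.64, and -0.98 with the GC trend removed), and UBXN4, named after its values were seen, was at -1.29, and at -0.54 with the GC trend removed. Among the translocon and signal peptidase genes, 1 of 15 was lower by the nominal rule and none higher. This was SPCS2, a signal peptidase subunit, with FPKM values of 121 and 242 in controls against 49.5 and 53.1 under GLUP (log2 fold change -1.72, and -0.96 with the GC trend removed). The translocon-associated SSR4, the most abundant gene of the list, had FPKM values of 2373 and 3067 in controls against 1460 and 1797 under GLUP (log2 fold change -0.74, and -1.24 with the GC trend removed). SSR2 and SEC61B lay higher in both GLUP libraries than in both controls, with log2 fold changes of 0.96 and 0.37, and SSR2 was at 0.11 without control replicate 2 and at 1.81 without control replicate 1, so abundant translocon genes were found on both sides.

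Calcium-binding lumenal proteins and KDEL receptors had 4 of 7 genes lower by the nominal rule and none higher (14.5% and 4.67% of all genes). In log2 fold change, 5 of the 7 were below 0 and 2 above it. These 2 were KDELR1 at 0.70 and NUCB1 at 0.73, and with the GC trend removed at 0.52 and 0.32 (both named after their values were seen). NUCB1 averaged 0.580 FPKM in controls and 1.64 FPKM under GLUP, so it passed the filter only through the GLUP libraries. NUCB2 had FPKM values of 35.2 and 63.9 in controls against 13.8 and 12.9 under GLUP (log2 fold change -1.76, and -1.14 with the GC trend removed). CALU, RCN1 and KDELR3, named after their values were seen, were at -1.42, -1.38 and -1.54, and with the GC trend removed at -0.71, -0.67 and -1.03. Of the stress sensors and transcription factors, 5 of 10 were tested, and 1 was lower by the nominal rule. This was DDIT3 (CHOP, a stress-induced factor downstream of PERK), also named after its values were seen. It had FPKM values of 159 and 160.3 in controls against 84.0 and 72.0 under GLUP (log2 fold change -1.03). With the GC trend removed DDIT3 was at -0.85, short of the 2-fold limit. ERN1 and EIF2AK3, which encode IRE1 and PERK, were under 1 FPKM in every library and were not tested, and ATF6, which like them was named after its values were seen, had FPKM values of 2.65 and 2.29 in controls against 1.19 and 1.12 under GLUP (log2 fold change -0.69, and -0.02 with the GC trend removed).

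**Figure D5:**
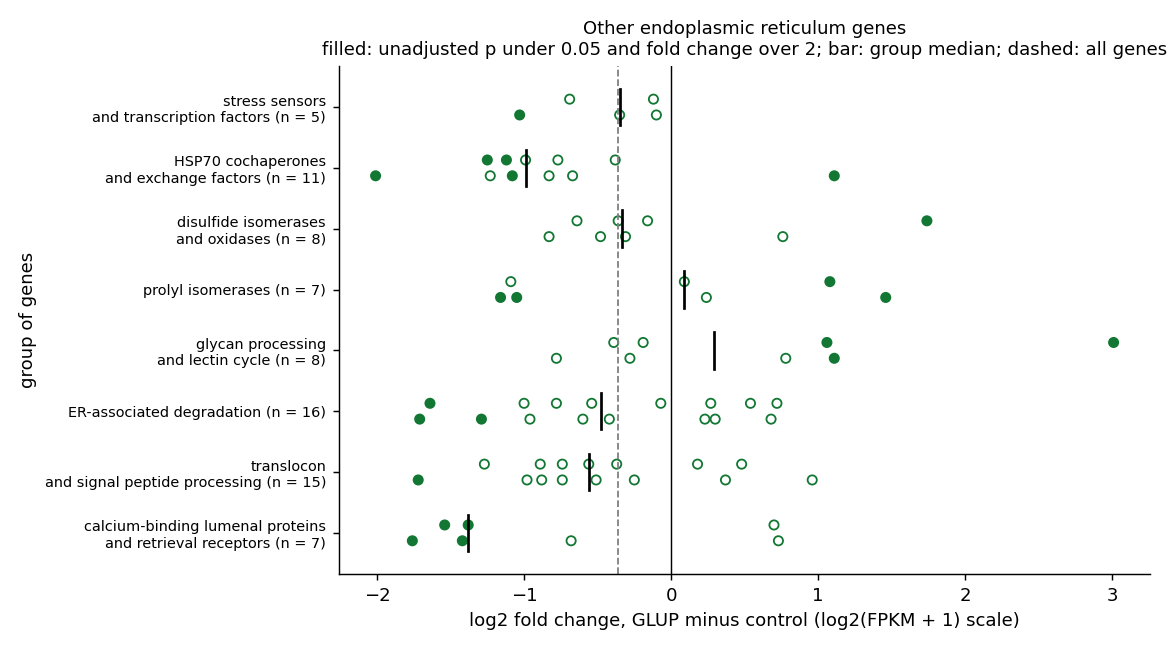
Log2 fold change between GLUP and control libraries (log2(FPKM + 1) scale) of the 77 other ER genes tested, by group, with the group median as a black bar and the median of all genes tested at -0.36 as a dashed line, and filled points pass the nominal rule. The 7 filled points on the right include LMAN2 at 3.01 and P4HB at 1.74, and the 15 on the left include SDF2L1 at -2.01 and NUCB2 at -1.76.

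The genes whose pattern over the 4 libraries was nearest to that of HSPA5 were sought among the 2262 other tested genes that averaged 10 FPKM or more, by the Euclidean distance between log2(FPKM + 1) values after each gene's mean was subtracted. They were RNASEH2A (distance 0.0739), CLIC1 (0.0851), PSMC4 (0.0971), MYG1 (0.106) and RPN1 (0.112), with log2 fold changes of 1.03 to 1.17. RPN1, a subunit of the oligosaccharyltransferase of the ER, had FPKM values of 13.3 and 4.63 in controls against 19.8 and 17.8 under GLUP. In all, 158 genes lay within a distance of 0.5 of HSPA5. Among the 9 other genes of the group, PDIA4 was nearest at 0.589 with 207 of the 2262 genes nearer still, and PDIA3 followed at 0.686, while CANX and XBP1 lay at 2.49 and 2.46. A pattern over 4 libraries, with control replicate 2 the lowest, was thus shared by many of the 2262 genes.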

How the data were processed

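The authors sequenced RNA of HGC-27 cells in 2 control and 2 GLUP libraries, analysed the reads on the Majorbio cloud platform and deposited FPKM values per gene. The submitters' processing notes name HISAT2, Cufflinks, RSEM and the build GRCh38.p10, with no role or version, whereas the row identifiers have the form of GENCODE annotation lifted to GRCh37, so gene positions are given on GRCh37 and promoters, from RefSeq, on GRCh38.p14. The 62492 rows, 49 of them second copies of pseudoautosomal genes, were summed to 62443 genes, of which 99.55% matched a symbol. Genes averaging 1 FPKM or more entered limma 3.58.1 (R 4.3.3) on the log2(FPKM + 1) scale, with a mean-variance trend, no replicate term and Benjamini-Hochberg adjustment over 7588 genes, and the fit was tested on simulated data. The fold change of low genes is understated on this scale. GC content of the longest transcript was known for 7570 genes, and its trend was removed with lowess (span 0.3), which also removes the overall shift of each library. Alternatives changed the pseudocount (0.1), the filter (any value above 0, or an average of 5 FPKM or more), the scaling (median centring, quantiles, the GC correction) and the model (no trend, replicate block), or left out each library. From the wider list the text names the 5 highest and 5 lowest fold changes by the nominal rule and the 5 most abundant genes, and exceptions are marked; the likeness search names the 5 nearest genes. PECAM1, among the cell markers looked for, was not matched, and HBB, PTPRC and COL1A1 were at 0 to 6.90 FPKM. The members and lists were chosen with earlier results of these data known.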

Additional observations from a re-analysis of the deposited data

How the results depend on the processing

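HSPA5 and PDIA4 stayed above 0 and CANX and XBP1 below it under all alternatives run, with ranges of 0.38 to 1.88, 0.70 to 1.51, -1.41 to -0.55 and -1.67 to -0.62 on the log2 scale. DNAJB9 ran from -1.44 to -0.01, the latter with the GC trend removed, where no difference was detectable, and had no value at the 5 FPKM filter. With 1 library left out, the values of the others ran from -0.81 to -0.30 for HSP90B1, -0.44 to 0.91 for CALR, -0.14 to 1.14 for PDIA3, -0.81 to -0.02 for PDIA6, -0.94 to 0.99 for HERPUD1, -0.95 to -0.66 for DNAJB9, and -1.41 to -1.05 and -1.67 to -0.88 for CANX and XBP1. HERPUD1 was at -0.12 without GLUP replicate 1. With the GC trend removed, alone or with the replicate block, HSP90B1 was at 0.16 and PDIA6 at 0.02, the reverse of their direction.

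With 1 control left, it is assumed to vary like the GLUP libraries. Over all alternatives the limma adjusted p ran from 0.00277 to 0.624 for HSPA5, 0.0116 to 0.650 for PDIA4, 0.0114 to 0.579 for CANX and 0.0212 to 0.579 for XBP1. The number of genes called in the whole table, 2 as reported, was 4 to 2710 with 1 library left out, 1 with a pseudocount of 0.1, after median centring and with quantile scaling, 0 without the level filter, at the 5 FPKM filter, without the mean-variance trend and with the GC trend removed, and 16 with the GC trend removed and the replicate block. The cause was not tested.

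Genes passing the nominal rule, 354 higher and 1103 lower, were 150 to 980 and 437 to 1749 with 1 library left out, 796 and 428 after median centring, and 673 and 486 with quantile scaling. The lower ones were 1670 with a pseudocount of 0.1, 347 with the GC trend removed and 408 with the replicate block added to it, and the 5 FPKM filter gave 186 and 704. For the wider list, 7 and 15 became 1 to 13 and 5 to 24 with 1 library left out, 13 and 8 after median centring, and the lower ones 23 with a pseudocount of 0.1, 7 with quantile scaling and 6 with the GC trend removed, with or without the block, while the higher ones were 3 at the 5 FPKM filter. For the 10 genes, 1 higher and 2 lower became 0 to 3 and 0 to 2 with 1 library left out. The higher ones were 2 after median centring, quantile scaling, the replicate block, the GC trend removed and both of these together, and 0 without the level filter. The lower ones were 0 after median centring, quantile scaling and the GC trend removed, with or without the block.

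The median of the 10 genes relative to all genes, 0.16, was -0.17 without the level filter, 0.45 at the 5 FPKM filter, and -0.14 to 0.23 with 1 library left out. That of the wider list, -0.16, was -0.10 with a pseudocount of 0.1, -0.35 without the level filter, -0.04 with the GC trend removed, with or without the block, and -0.15 to -0.09 with 1 library left out. Equal replicate numbers are not said to share a culture or day, and their deviations correlated at 0.126 across genes in a design of 2 pairs. With the replicate block, no gene of the 10 passed the adjusted threshold, and 2 genes of the table did. Sequencing depth is unknown, and counting error could not be given.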
